A study of Homo sapiens with 14 samples.

Results

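The SAP30 knockout of MDA-MB-231 cells was examined through 4 RNA-Seq libraries, 2 of SAP30-KO1 and 2 of SAP30-KO2, set against 2 libraries of the parental cells, out of 14 libraries in the series. The libraries were chosen by the group that the submitters' labels give them. MDA-MB-231 is an established cell line of TNBC (triple-negative breast cancer, which lacks estrogen receptor, progesterone receptor, and HER2 amplification), and the study also sequenced lines without SIN3A and SIN3B (SIN3A/3B-DKO) and lines without MLL1. The SAP30 lines were made with CRISPR/Cas9 and single guide RNAs (sgRNAs) that the study calls independent, selected with puromycin. As the study lists them, the 2 guide sequences overlap over most of their length, so that the lines target nearly the same site. By the study's methods, several knockout cells were expanded and pooled, so that neither line is 1 clone. The parental cells were not edited, and no library of a scrambled sgRNA control was used here. Every group was grown in the same serum-containing medium with no treatment, and nothing in the labels says whether the 2 libraries of a group came from separate cultures, so that the p-values measure only the spread between these libraries.

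SAP30 is a subunit of the SIN3 complex, in which the scaffold proteins SIN3A or SIN3B hold histone deacetylases HDAC1 and HDAC2 and are brought to promoters by DNA-binding factors. Removal of acetyl groups from histones by this complex is known for silencing genes, so a loss of a subunit is classically read as release of repressed genes. The study asked whether SAP30 can also serve to switch genes on. The comparison below describes which functions and gene families were lower and which were higher in both lines.

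The deposited value is TPM (transcripts scaled to a fixed total), a level that corrects for gene length and sums to 1000000 in every library. The 6 libraries hold 19386518 to 23115376 reads, counted back from what 1 read adds to a gene. In each group the 2 libraries differed by more than counting noise, the ratio of chi-square to its degrees of freedom being 2.2 in Parental, 3.77 in SAP30-KO1, and 1.84 in SAP30-KO2. Most but not all markers chosen for this line went as set beforehand. VIM, the mesenchymal filament vimentin, lay between 5740 and 7260 TPM in the 6 libraries, and CD44, EGFR, AXL, and CAV1 were at 96.1 TPM or more. Of those set as low or absent, ESR1, the estrogen receptor, was at most 0.0555 TPM, PGR 0.139 TPM, and CDH1 1.25 TPM. EPCAM (6.55 to 19.2 TPM), GATA3 (11 to 17.3 TPM), and ERBB3 (4.5 to 7 TPM) belong to the same set and were present. Of 12 marker genes of blood, endothelial, liver, and stromal cells, 9 were under 1 TPM in all 6 libraries, and CD3E and CDH5 were at 0. The summed level of the 12 was 184 to 189 TPM in Parental and 285 to 299 TPM in the SAP30 lines, nearly all of it CD68, a lysosomal protein best known from macrophages, whose part in the results was not tested.

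SAP30 itself lies at chr4:174291120-174298683 on the plus strand (hg19). Its level was 78.9 and 82.8 TPM in Parental, 3.13 and 3.72 TPM in SAP30-KO1, and 4.96 and 2.75 TPM in SAP30-KO2. The groups did not overlap, the log2 fold change being -4.38 and -4.27 (SE 0.18, adjusted p = 2.4e-08 in both lines from limma), and the remaining RNA was 25 to 46 reads per library. RNA left in a knockout line does not show whether protein is made from it. The rest of the SIN3 complex was near its parental level: of 24 subunit genes tested, SAP30 was the only one called in both lines, and the other 23 lay between -0.36 (BRMS1) and 0.45 (BRMS1L) on the log2 scale in SAP30-KO1 and between -0.45 and 0.54 in SAP30-KO2. SAP30L, the closest relative of SAP30, was 18.4 and 18.6 TPM in Parental, 25.9 and 24.2 TPM in SAP30-KO1, and 26.8 and 27.5 TPM in SAP30-KO2. Its log2 fold change of 0.43 and 0.54 stayed under the 1.5-fold minimum for a call.

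Calls required both a limma p under 0.05 after Benjamini-Hochberg adjustment and a change of at least 1.5-fold on the scale of log2(TPM + 0.5), where low genes appear to change less than they did. In SAP30-KO1, 1064 genes (7.86%) were lower and 1056 (7.8%) were higher than in Parental, and in SAP30-KO2 the numbers were 1100 (8.12%) and 1008 (7.44%). Of 13540 genes tested, 920 were lower in both lines, which is 6.79% of them, and 836 were higher in both, which is 6.17%, so that 13% were called the same way in both. The lines use the same 2 parental libraries, so a deviation of those libraries would appear in both, and the number of genes in common is no independent repeat. Exactly 1 gene (0.00739%) was called in opposite directions, LHFPL4, a membrane protein of the tetraspan family. Counts of a gene list are given below, to be read as shares of the list beside 6.79% lower and 6.17% higher, and a share near these is not a result about the list.

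**Figure D1:**
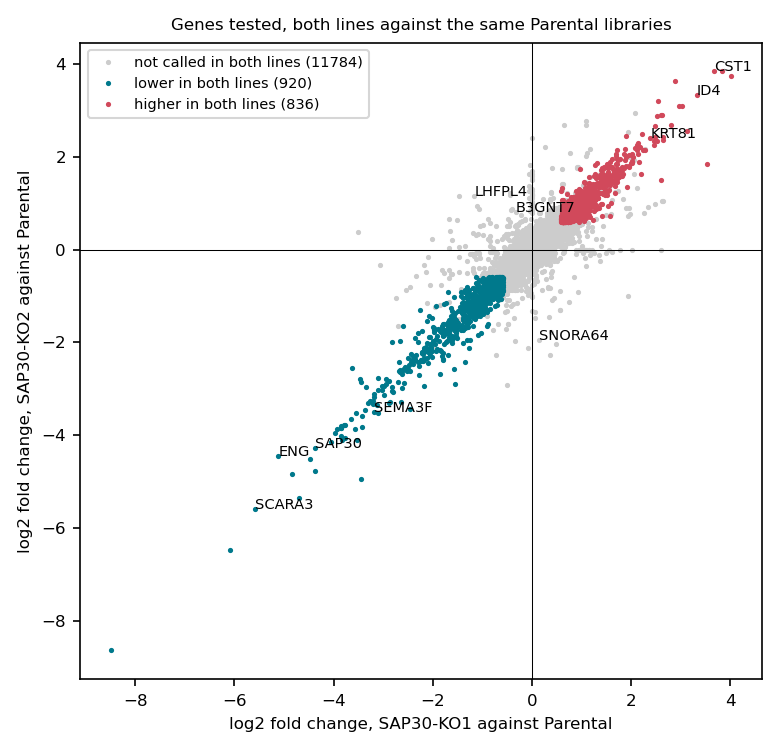
Log2 fold change of each tested gene in SAP30-KO1 (x axis) and SAP30-KO2 (y axis), both against the same 2 Parental libraries. The 920 genes lower and the 836 genes higher in both lines lie along the diagonal, and LHFPL4 lies in the quadrant of opposite directions.

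The calls were unevenly spread over the genome, in a way that touches several gene groups below. On chromosome 11, 219 of 738 tested genes (29.7%) were lower in both lines and 17 were higher. On chromosome X, 128 of 435 (29.4%) were higher and 17 were lower. On chromosome 1, 127 of 1314 (9.67%) were higher, and on chromosome 16, 60 of 556 (10.8%) were lower. Chromosomes 13 and 21 had 10.4% and 10.2% lower, and chromosome 14 had 10.5% higher. Chromosome 17 as a whole, with 58 of 763 lower (7.6%), was near the share over all genes. Its stretches from 20 to 40 Mb and from 60 to 70 Mb were lower, with 10 Mb window medians of -0.39 to -0.36 in both lines. Whole stretches were shifted: of 238 windows of 10 Mb (hg19) with at least 20 tested genes, 18 had a median log2 fold change under -0.3 in both lines and 17 had one above 0.3, and 0 windows went past 0.3 in opposite directions. The 18 lower windows hold 296 of the 881 lower genes with a known position, and the 17 higher windows hold 217 of the 808 higher genes.

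**Figure D2:**
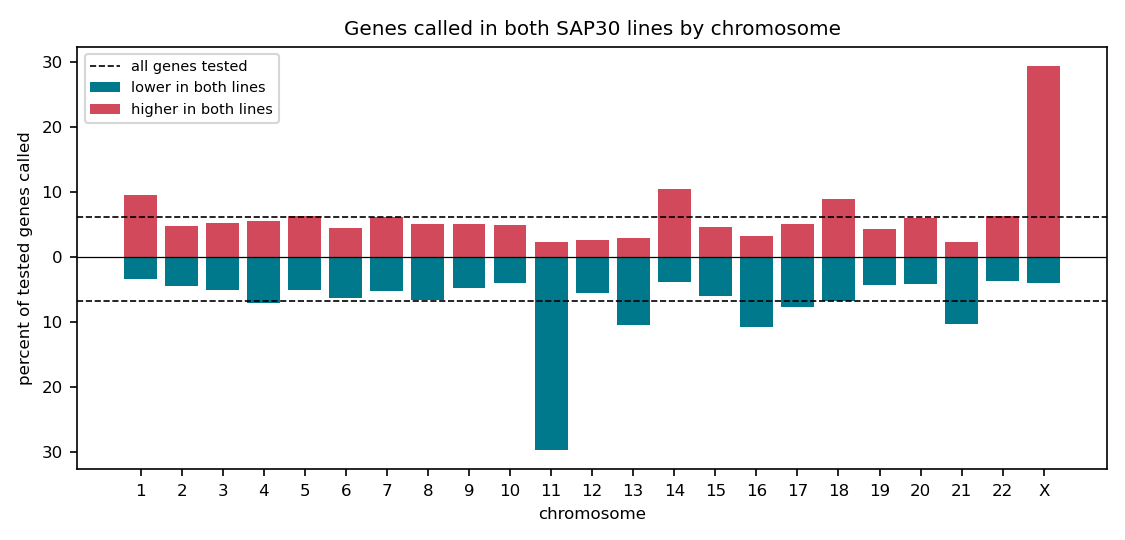
Percent of tested genes called in both SAP30 lines on each chromosome, lower genes drawn downward and higher genes upward, with dashed lines at the share of all genes tested. Chromosome 11 stands out on the lower side (29.7%) and chromosome X on the higher side (29.4%).

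Window medians of the other edited lines differed from those of the SAP30 lines on chromosome 11. Between 50 and 80 Mb the window medians were -0.46 to -0.45 in SAP30-KO1 and -0.53 to -0.43 in SAP30-KO2, while those against the same parental libraries were 0.04 to 0.08 in the SIN3A/3B-DKO lines and -0.00 to 0.06 in the MLL1-KO lines. Between 90 and 130 Mb they were -0.88 to -0.68 in SAP30-KO1, -0.33 to -0.23 in the SIN3A/3B-DKO lines, and -0.68 to -0.57 in the MLL1-KO lines. By contrast, the X chromosome window from 100 to 110 Mb was shifted by 0.82 and 0.76 in the SAP30 lines, by 0.69 in the SIN3A/3B-DKO lines, and by 0.53 in the MLL1-KO lines. A change in DNA copy number and a change in transcription of a whole stretch cannot be told apart in RNA. As a second measure, the running median of 51 neighbouring genes was subtracted from each library: 651 genes were then lower and 545 higher in both lines, against 884 and 810 for the same genes without it, and 575 and 489 were called before and after. Counts after this subtraction are given beside the lists as adjusted for neighbours. Their background is the 651 lower and 545 higher of 12920 tested genes with a position.

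Genes for vessel growth were more often lower than higher. This list holds secreted factors that stimulate or restrain endothelial cells and their receptors: of 27 tested, 10 were lower and 3 higher in both lines, the same counts adjusted for neighbours, with a median log2 fold change of -0.33 against 0.02 over all genes. ENG, an auxiliary receptor for TGF-beta and BMP ligands (chr9:130577292-130616937, minus strand), was 65.8 and 65.7 TPM in Parental, 1.56 and 1.29 TPM in SAP30-KO1, and 2.40 and 2.67 TPM in SAP30-KO2. This was the largest change in the list, a log2 fold change of -5.11 and -4.45 (SE 0.12, limma adjusted p = 1.4e-09 and 2.1e-09). PDGFB, a platelet-derived growth factor, was a low gene with 40 and 44 reads in Parental and 2 to 8 reads in the 4 SAP30 libraries. PDGFD, its relative, was 8.32 and 8.15 TPM in Parental and 2.05 to 2.61 TPM in the SAP30 lines, a change of -1.57 and -1.63 that includes a neighbour median of -0.77 in SAP30-KO1, because the gene lies at chr11:103777917-104035107 in the lower stretch. ADM2, an adrenomedullin peptide that relaxes vessels, was 3.81 and 3.68 TPM in Parental and 0.588 to 0.943 TPM in the SAP30 lines. The other lower members were PDGFRB, TIE1, RAMP1, FGF1, EDN2, and SERPINF1. The 3 higher members were angiogenic ligands as well: VEGFA, the main vascular growth factor, was 72.1 and 73.4 TPM in Parental and 130 to 146 TPM in the SAP30 lines, PGF was 29.0 and 22.7 TPM and 68.3 to 85.6 TPM, and APLN was 4.23 and 4.47 TPM and 11.1 to 12.7 TPM. Because the 3 were called from these same libraries, the gap between their groups adds no further support. The list thus moved in both directions.

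Guidance molecules of axons and migrating cells followed the same balance. Of 45 semaphorins, plexins, ephrins, Eph receptors, and SLIT or ROBO genes tested, 8 were lower and 2 higher in both lines, or 11 and 3 adjusted for neighbours, with a median of -0.19. SEMA3F, a secreted semaphorin that repels endothelial and tumor cells, was 40.1 and 41.4 TPM in Parental, 4.27 and 3.78 TPM in SAP30-KO1, and 3.17 and 3.16 TPM in SAP30-KO2 (log2 fold change -3.19 and -3.49, SE 0.09, limma adjusted p = 2.7e-09 and 1.7e-09). SEMA3E had 225 and 230 reads in Parental and 1 to 5 reads in each SAP30 library. SEMA4G was 2.81 and 3.11 TPM in Parental and 0.0832 to 0.221 TPM in the SAP30 lines. The rest of the lower members were SEMA3C, PLXNB1, EFNB2, EFNB3, and ROBO2, and the higher ones were SEMA6D and PLXNB3.

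Genes of cell junctions were lower in a larger share than all genes. Of 15 claudin and tight junction genes tested, 6 were lower and 0 higher in both lines (median -0.48), and of 12 classical cadherin and desmosome genes 6 were lower and 1 higher (median -0.62). Adjusted for neighbours these became 6 lower and 1 higher, and 5 lower and 1 higher. CLDN1, a claudin that seals the space between epithelial cells (chr3:190023496-190040235), was 10.2 and 11 TPM in Parental, 1.01 and 1.01 TPM in SAP30-KO1, and 0.728 and 0.530 TPM in SAP30-KO2 (log2 fold change -2.88 and -3.30, SE 0.20, limma adjusted p = 7.9e-07 and 2.7e-07). MARVELD2, which holds junctions where 3 cells meet, was 7.28 and 7.998 TPM in Parental and 1.02 to 2.16 TPM in the SAP30 lines. F11R, a junctional adhesion molecule, was 22.1 and 22.3 TPM in Parental and 6.07 to 8.25 TPM, and OCLN (occludin), CLDN2, and CGNL1 were the others. DSP, the desmoplakin that ties desmosomes to keratin, was 77.0 and 71.2 TPM in Parental, 18.4 and 15.1 TPM in SAP30-KO1, and 14.3 and 14.2 TPM in SAP30-KO2. JUP, plakoglobin, was 17.4 and 19.9 TPM in Parental and 3.65 to 4.59 TPM in the SAP30 lines. CDH1 (E-cadherin) was scarce from the start, with 37 and 42 reads in Parental and 0 to 8 reads in the SAP30 libraries. CDH11, a cadherin of mesenchymal cells, went the other way, from 35.2 and 36.6 TPM to 122 and 115 TPM in SAP30-KO1 and 130 and 131 TPM in SAP30-KO2 (log2 fold change 1.71 and 1.85, SE 0.04), while its neighbours on chromosome 16 had a median of -0.29 in SAP30-KO1.

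Keratins are the intermediate filaments to which desmosomes attach. Of 11 tested, KRT7, KRT8, KRT18, and KRT19 of simple epithelia were lower in both lines and KRT81, a hair keratin, was higher, and adjusted for neighbours 4 were lower and 3 higher. KRT7 was 273 and 269 TPM in Parental, 109 and 114 TPM in SAP30-KO1, and 105 and 108 TPM in SAP30-KO2. KRT18 was 746 and 777 TPM in Parental and 403 to 427 TPM in the SAP30 lines. KRT81 was 15.2 and 16.2 TPM in Parental and 83.5 to 87.2 TPM in the 4 SAP30 libraries (log2 fold change 2.39 and 2.40). Among 13 regulators and markers of epithelial and mesenchymal state, EPCAM, S100A4, and CAV1 were lower and CD24 was higher, so that markers of both states were among the lower ones. Adjusted for neighbours, 3 were lower and 0 higher among the 12 with a position. CD24 had no position and was not tested there. EPCAM, an epithelial adhesion molecule, was 19.2 and 19.1 TPM in Parental and 6.55 to 9.83 TPM in the SAP30 lines, and S100A4, a mesenchymal marker, was 332 and 378 TPM in Parental and 133 to 180 TPM in the SAP30 lines.

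**Figure D3:**
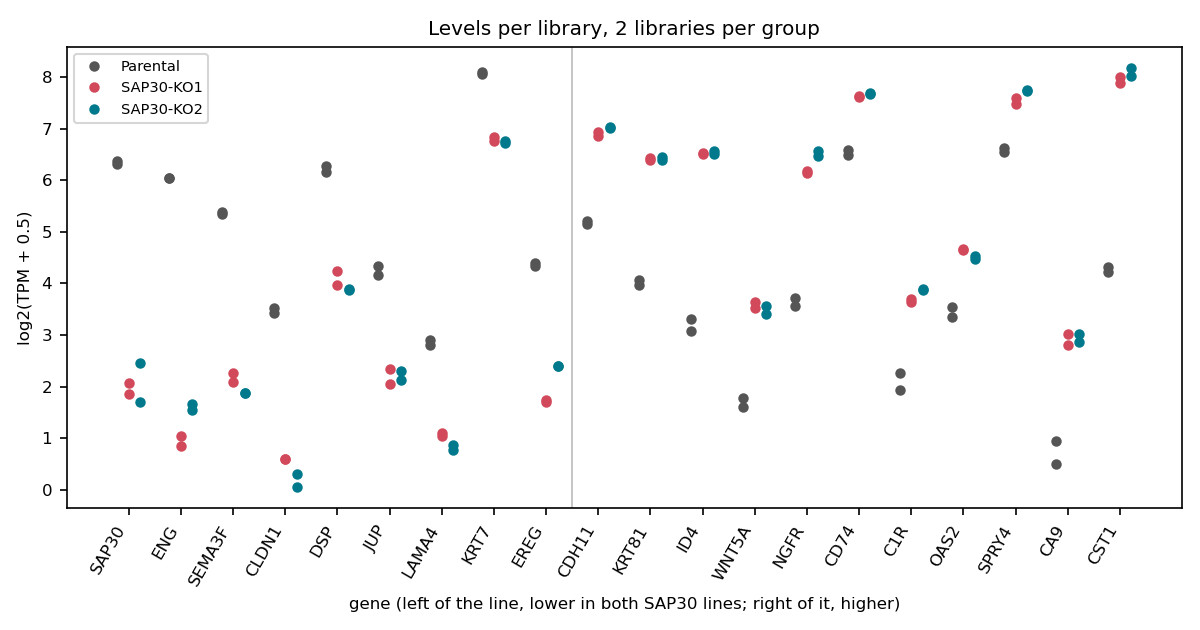
Levels of 20 genes as log2(TPM + 0.5) in each library, 1 point per library, for Parental, SAP30-KO1, and SAP30-KO2. For each gene the Parental points lie clear of the SAP30 points, above them for the genes on the left and below them for those on the right. The genes shown were chosen from those called in both lines, so this separation adds no further support.

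The extracellular matrix changed member by member rather than as 1 block. Among 20 collagens, 5 were lower and 4 higher, or 4 and 3 adjusted for neighbours. Among 10 laminins and nidogens 2 were lower and 1 higher, and among 14 integrins 2 were lower and 1 higher, with the same counts adjusted. COL4A1, a basement membrane collagen, was 90.5 and 90.7 TPM in Parental, 46.5 and 43.2 TPM in SAP30-KO1, and 36.0 and 38.5 TPM in SAP30-KO2, and its partner COL4A2 was lower too. COL4A5, another chain of the same family on chromosome X, was 1.54 and 1.64 TPM in Parental and 5.53 to 6.17 TPM in the SAP30 lines. LAMA4, a laminin of vessel and muscle basement membranes, was 6.98 and 6.49 TPM in Parental and 1.21 to 1.65 TPM in the SAP30 lines, whereas LAMA3, a chain of epithelial laminin, was 6.88 and 6.84 TPM and 12.5 to 14.8 TPM. The integrin subunit ITGB4, which binds that epithelial laminin, was 59.9 and 61.2 TPM in Parental, 23.9 and 20.9 TPM in SAP30-KO1, and 29.5 and 30.4 TPM in SAP30-KO2. Among 33 metalloproteinases and their inhibitors, 7 were lower and 3 higher, or 4 and 5 adjusted for neighbours. TIMP3, an inhibitor of these proteases, was 819 and 826 TPM in Parental and 282 to 293 TPM in the SAP30 lines, and ADAMTS1, a protease of proteoglycans, was 52.5 and 52.3 TPM and 13.4 to 15.9 TPM. MMP1, a collagenase, lies in the lower stretch of chromosome 11 with a neighbour median of -0.75 in SAP30-KO1 and -0.80 in SAP30-KO2. With that subtracted, its log2 fold change was -0.34 in SAP30-KO1, under the minimum for a call, and -1.03 in SAP30-KO2.

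Signalling pathways held members in both directions. In the BMP and TGF-beta pathway, 9 of 37 genes were lower and 6 higher, or 11 and 4 adjusted for neighbours. ID1 and ID3, which BMP signals are known to induce, were lower, with ID3 at 6.17 and 5.76 TPM in Parental and 0.296 to 0.624 TPM in the SAP30 lines. ID4, of the same family of inhibitors of DNA-binding helix-loop-helix factors, was 9.47 and 7.99 TPM in Parental, 91.3 and 92.7 TPM in SAP30-KO1, and 94.8 and 90.3 TPM in SAP30-KO2 (log2 fold change 3.33 and 3.34, SE 0.12, limma adjusted p = 1.2e-08 and 9.3e-09). The ligand BMP2, the receptor BMPR1B, the signal carriers SMAD1 and SMAD9, and the antagonist FST were lower. The inhibitory SMADs were higher: SMAD7 was 2.71 and 4.02 TPM in Parental and 9.36 to 12.5 TPM in the SAP30 lines, and SMAD6 was 16.1 and 16.9 TPM and 25.4 to 28.0 TPM. In the Notch pathway, 5 of 21 genes were lower and 3 higher, or 6 and 0 adjusted for neighbours. The ligand JAG2 was 2.77 and 2.59 TPM in Parental and 0.103 to 0.221 TPM in the SAP30 lines, the receptor NOTCH3 was 1.52 and 1.52 TPM and 0.482 to 0.671 TPM, and the target gene HES1 was 42.4 and 46.7 TPM and 25.6 to 28.9 TPM.

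Among 28 WNT genes, 3 were lower and 4 higher, or 2 and 3 adjusted for neighbours. WNT5A, a ligand of the noncanonical branch, was 2.92 and 2.54 TPM in Parental and 10.2 to 12.0 TPM in the SAP30 lines, and the receptor FZD8 was 20.9 and 21.0 TPM and 53.1 to 65.6 TPM. DKK1, a secreted WNT antagonist, was 409 and 386 TPM in Parental and 187 to 191 TPM in the SAP30 lines. Of 10 EGFR family genes, 4 were lower and 1 higher, or 2 and 1 adjusted for neighbours. The EGFR ligand EREG (epiregulin) was 20.5 and 19.8 TPM in Parental, 2.85 and 2.76 TPM in SAP30-KO1, and 4.78 and 4.77 TPM in SAP30-KO2, and the ligand EGF was higher at 1.42 to 2.17 TPM against 0.573 and 0.460 TPM. EGF reached the 1 TPM minimum only in the SAP30 libraries, so that its entry into the test rests on them. Genes that growth factors induce within minutes were more often higher: of 28 immediate early genes, 7 were higher and 1 lower (median 0.25), and 6 and 1 adjusted for neighbours. SPRY4, a feedback inhibitor of receptor kinases, was 98.9 and 93.9 TPM in Parental and 179 to 215 TPM in the SAP30 lines, and EGR1 was 6.52 and 5.19 TPM and 10.9 to 14.4 TPM. DUSP1, a MAP kinase phosphatase, was the lower one, at 73.2 and 71.1 TPM in Parental and 28.2 to 39.7 TPM in the SAP30 lines. Of 19 YAP and TEAD targets, 4 were lower and 0 higher, and 2 remained lower adjusted for neighbours. These were ANKRD1, 964 and 962 TPM in Parental and 493 to 548 TPM in the SAP30 lines, and F3 (tissue factor), 445 and 418 TPM and 222 to 246 TPM.

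Interferon-stimulated genes, which cells switch on against viruses, were more often higher than lower. Of 51 tested, 10 were higher and 1 lower in both lines (median 0.26), and 9 and 1 adjusted for neighbours. IFI27 was 13.9 and 18.6 TPM in Parental, 33.5 and 47.5 TPM in SAP30-KO1, and 57.1 and 59.5 TPM in SAP30-KO2. OAS2, which senses double-stranded RNA, was 9.69 and 11.2 TPM in Parental and 21.8 to 24.96 TPM in the SAP30 lines. IFITM1, a membrane protein that blocks virus entry, was the lower one, with 63.2 and 57.8 TPM in Parental and 28.1 to 35.7 TPM. Of 22 genes of antigen presentation, 3 were higher and 0 lower, with and without the neighbour adjustment, all of the class II pathway: CD74, the chaperone of class II molecules, was 95.6 and 89.1 TPM in Parental and 195 to 207 TPM in the SAP30 lines, and HLA-DMA was 1.69 and 1.78 TPM and 4.202 to 4.86 TPM, with HLA-DMB the third. HLA-DMB reached the 1 TPM minimum only in SAP30 libraries, so that it was tested because of its level there and adds no support. Of 11 complement genes 2 were higher and 1 lower, or 1 and 1 adjusted. Of the higher ones, C1S reached 1 TPM only in SAP30-KO1, so that it too was tested only through SAP30 libraries. C1R, a protease of the complement cascade, was 3.31 and 4.29 TPM in Parental and 11.9 to 14.4 TPM in the SAP30 lines, and CLU (clusterin), which restrains complement, was 16.3 and 16.6 TPM and 2.55 to 3.32 TPM.

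**Figure D4:**
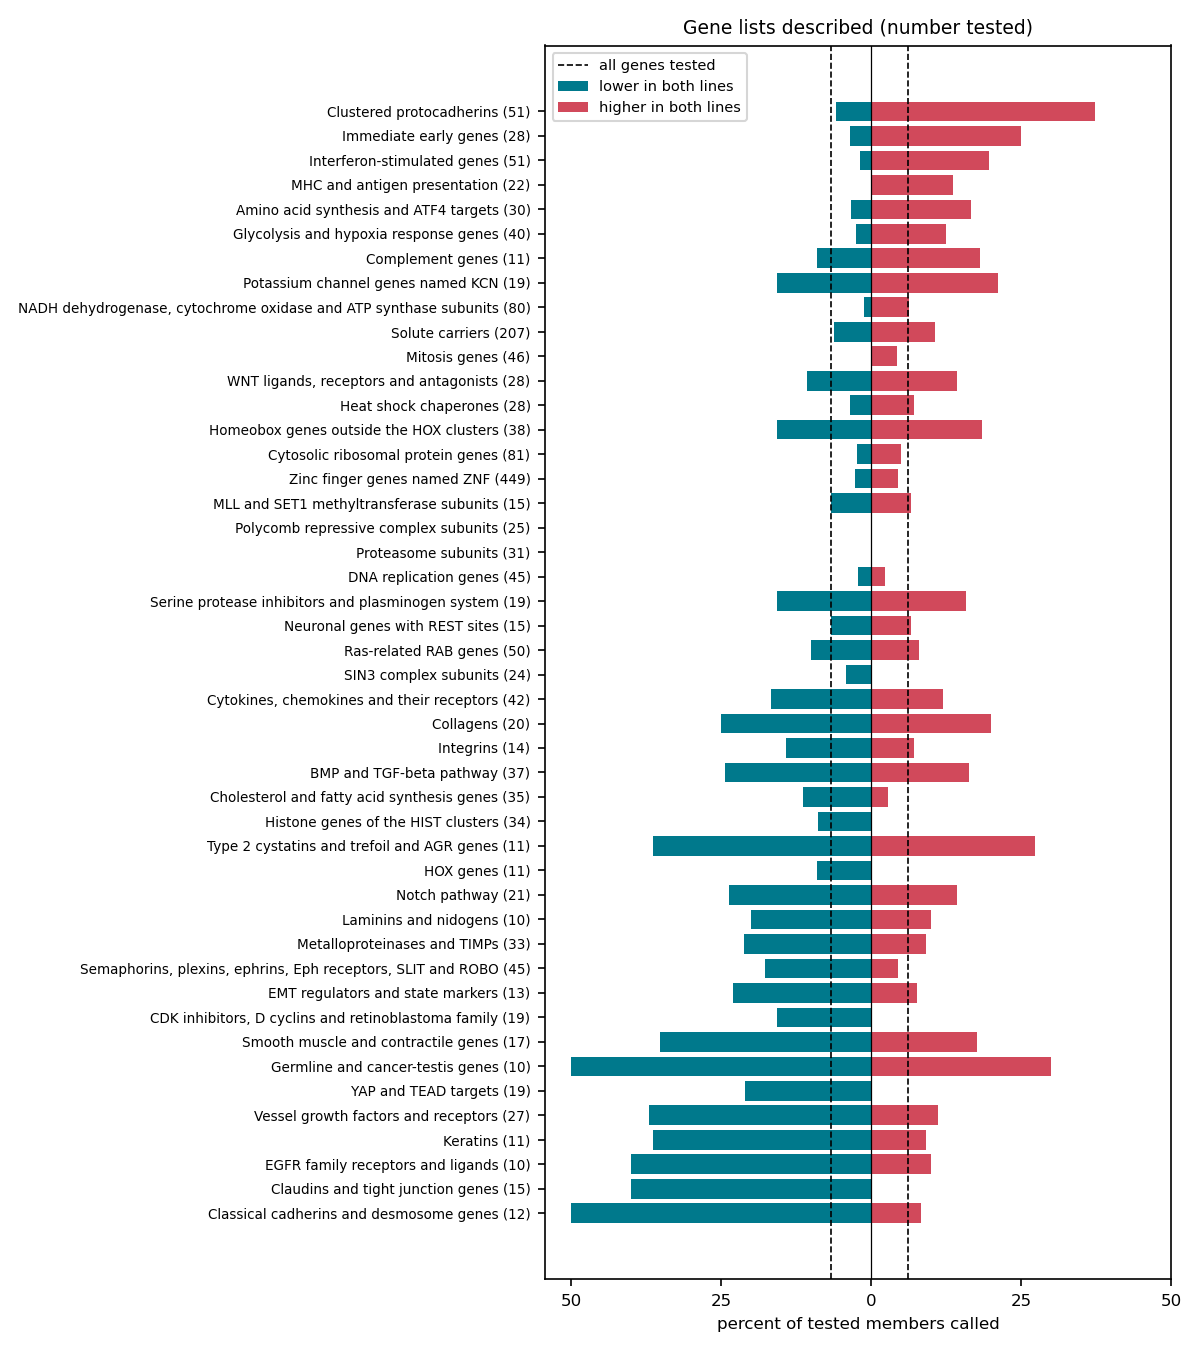
Percent of tested members of each gene list called lower (left) or higher (right) in both SAP30 lines, with dashed lines at the shares of all genes tested, 6.79% and 6.17%. Cadherin, tight junction, and vessel lists extend to the left, and protocadherin, immediate early, and interferon lists to the right.

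Among metabolic and stress lists, 5 of 40 glycolysis and hypoxia genes were higher and 1 lower, and 3 and 2 adjusted for neighbours. CA9, a carbonic anhydrase known as a hypoxia target, was 1.43 and 0.919 TPM in Parental and 6.47 to 7.62 TPM in the SAP30 lines. NDRG1 was 125 and 128 TPM in Parental and 309 to 350 TPM, and EGLN3, an oxygen-sensing hydroxylase, was 4.04 and 4.62 TPM and 10.8 to 14.3 TPM. Of 35 genes of cholesterol and fatty acid synthesis 4 were lower and 1 higher, and of 46 genes of mitosis 2 were higher, CDC20 and KIF2C. With neighbours subtracted limma called 0 members of either list, although 20 members of each had an unadjusted p under 0.05 in both lines. The same held for most ribosomal genes: 2 of 81 were lower and 4 higher, against 0 and 1 adjusted. Of 45 DNA replication genes 1 was lower and 1 higher (0 and 1 adjusted), and of 31 proteasome genes and 25 Polycomb genes limma called 0 in both lines, as did limma voom on the recovered reads. An unadjusted p under 0.05 in the same direction in both lines was found for 18 and 10 of them. MKI67, a proliferation marker, was 271 and 246 TPM in Parental and 170 to 232 TPM in the SAP30 lines, with log2 fold changes of -0.41 and -0.21.

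Of 15 subunit genes of the MLL and SET1 methyltransferases, which place the histone mark of active promoters, 1 was lower and 1 higher, or 0 and 1 adjusted for neighbours. At 6.67% in each direction, the list was near the shares over all genes. MLL, the gene for MLL1, was 56.7 and 49.0 TPM in Parental, 31.6 and 23.0 TPM in SAP30-KO1, and 35.4 and 31.3 TPM in SAP30-KO2, but it lies in the lower stretch of chromosome 11 and, with the neighbour median subtracted, its mean log2 fold change was 0.08. CXXC1, which recruits the SET1 enzymes to CpG-rich DNA, was 23.4 and 24.2 TPM in Parental and 43.5 to 49.6 TPM in the SAP30 lines, and it was higher with neighbours subtracted too. All 4 SAP30 libraries lay on 1 side of Parental for both genes, which follows from their having been called in these libraries. Histone genes of the HIST clusters, counted here only as far as mRNA libraries capture them, had 3 of 34 lower and 0 higher, with the same counts adjusted. HIST1H2BK was 244 and 251 TPM in Parental and 82.9 to 98.4 TPM in the SAP30 lines.

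Cytokines and their receptors had 7 of 42 genes lower and 5 higher, or 7 and 4 adjusted for neighbours. CMKLR1, the receptor of the chemoattractant chemerin, was 11.9 and 13.5 TPM in Parental, 1.93 and 2.23 TPM in SAP30-KO1, and 2.92 and 3.15 TPM in SAP30-KO2. IL24 was 6.68 and 4.69 TPM in Parental, 21.5 and 24.2 TPM in SAP30-KO1, and 14.7 and 15.4 TPM in SAP30-KO2, so that it was higher in both lines. Of 17 smooth muscle and contractile genes 6 were lower and 3 higher (6 and 2 adjusted), of 19 serine protease inhibitor and plasminogen genes 3 were lower and 3 higher (2 and 2 adjusted), and of 11 HOX genes 1 was lower, HOXC8 (2 adjusted). ACTA2, the smooth muscle actin, was 7.06 and 6.63 TPM in Parental and 1.88 to 2.57 TPM in the SAP30 lines, with reads that other actins could share. Cell cycle control held 3 lower genes of 19 and 0 higher, or 2 and 0 adjusted, among them CCND2 (cyclin D2), 1.60 and 1.84 TPM in Parental and 0.0593 to 0.165 TPM in the SAP30 lines. Both metallothionein genes that were called (of 7) were higher, also when adjusted, MT1X with 89.5 and 93.3 TPM in Parental and 162 to 210 TPM in the SAP30 lines, and near-identical copies could share these reads. Of 30 genes of amino acid synthesis and the ATF4 response 5 were higher and 1 lower, or 3 and 1 adjusted. TRIB3, a pseudokinase of that response, was 26.3 and 27.9 TPM in Parental and 48.9 to 53.0 TPM in the SAP30 lines, whereas GLUL was 50.5 and 49.2 TPM and 18.8 to 21.2 TPM. The remaining lists were counted only. Of 449 ZNF genes 12 were lower and 20 higher (9 and 13 adjusted for neighbours), of 207 solute carriers 13 and 22 (8 and 15), of 50 RAB genes 5 and 4 (4 and 3), and of 19 KCN potassium channel genes 3 and 4 (1 and 4). Of 38 homeobox genes outside the HOX clusters 6 were lower and 7 higher (5 and 4 adjusted), of 80 respiratory chain and ATP synthase genes 1 and 5 (0 and 1), of 28 heat shock chaperones 1 and 2 (1 and 1), and of 15 neuronal genes with REST sites 1 and 1 (1 and 1).

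Several families of tandem genes moved as blocks. All 15 tested genes of the PCDHA cluster, cell surface adhesion proteins of neurons on chromosome 5, were higher in both lines, with levels of 0.105 to 0.297 TPM in the parental libraries and 0.805 to 2.78 TPM in the SAP30 libraries and a median log2 fold change of 1.66. Parental was under the 1 TPM minimum for all 15, so that they were tested only through edited lines and the count is partly built in. These 15 genes share their last exons, so that reads cannot be told apart among them and they may amount to 1 change. The neighbouring PCDHB genes were split, with 3 lower and 4 higher of 14, and limma and limma voom each called 0 of the 22 PCDHG genes, all 22 with an unadjusted p under 0.05 in both lines, at 19.5 to 39.2 TPM in Parental and 23.4 to 44.7 TPM in the SAP30 lines. The 12 PCDHGA genes among them had nearly the same log2 fold change (quartiles 0.21 and 0.23). The PCDHG genes too may amount to 1 change. CST1, CST2, and CST4, near-identical secreted inhibitors of cysteine proteases on chromosome 20, were higher. CST1 was 19.4 and 18.2 TPM in Parental, 236 and 258 TPM in SAP30-KO1, and 261 and 290 TPM in SAP30-KO2, and reads could be shared with its relatives. The trefoil factors, small secreted proteins of mucus, fell together on chromosome 21: TFF1 had 41 and 57 reads in Parental and 0 reads in all 4 SAP30 libraries, which is at least 16.6-fold lower in SAP30-KO1 and at least 18.9-fold lower in SAP30-KO2 with a floor of 3 reads per library. TFF1 was also nearly absent from the other edited lines, at 0 to 0.241 TPM in the SIN3A/3B-DKO libraries and 0 TPM in the MLL1-KO libraries. Among 10 germline and cancer-testis genes, MAGEA6, MAGEA12, MAGEC1, MAGEC2, and TPTE were lower and MAEL, DCAF8L2, and ZNF165 were higher, 5 and 3 with the adjustment as well. MAGEC2 was 17.8 and 18.3 TPM in Parental and 0.551 to 1.16 TPM in the SAP30 lines, although its neighbours on chromosome X had a median of 0.51 in SAP30-KO1.

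Outside the lists, genes with large changes included surface and adhesion proteins. SCARA3, a scavenger receptor, had 639 and 635 reads in Parental and 0 in all 4 SAP30 libraries, at least 215-fold lower in SAP30-KO1 and at least 245-fold lower in SAP30-KO2 by the same floor. FBLIM1, an adaptor of focal adhesions, was 28.4 and 27.5 TPM in Parental and 0.958 to 1.504 TPM in the SAP30 lines, and LSR, a receptor of lipoproteins and of tricellular junctions, was 18.2 and 19.2 TPM and 0.683 to 1.22 TPM. On the higher side, NGFR, a receptor of neurotrophins, was 12.7 and 11.3 TPM in Parental, 72.6 and 69.8 TPM in SAP30-KO1, and 94.6 and 88.2 TPM in SAP30-KO2.

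Promoters of the called genes differed from those of the other genes in their content of CpG, the dinucleotide whose abundance marks CpG islands. In windows from 250 bases before to 50 bases after the start site (GRCh37), 20% of lower genes and 22.1% of higher genes had an observed to expected CpG ratio under 0.5, against 8.77% of the tested genes called in neither direction in both lines. The median ratio was 0.827, 0.763, and 0.862 in these groups. The letters TATAAA, on either strand, were in 9.35% of lower, 7.92% of higher, and 4.96% of other promoters, and in 5.45% of all those tested. A promoter poor and one rich in CpG are shown for each direction, chosen after their values were seen: ENG and LSR, which were lower, and ID4 and DCAF8L2, a putative ubiquitin ligase adaptor of testis, which were higher. They are from RefSeq on GRCh38.p14, written 5′ to 3′ along the gene with each CpG in capitals. ENG (chr9:127854609-127854908 on the minus strand) holds 8 CpG in 300 bases, LSR (chr19:35248752-35249051 on the plus strand) holds 29, ID4 (chr6:19837120-19837419 on the plus strand) holds 39, and DCAF8L2 (chrX:27590094-27590393 on the plus strand) holds 5.
ENG: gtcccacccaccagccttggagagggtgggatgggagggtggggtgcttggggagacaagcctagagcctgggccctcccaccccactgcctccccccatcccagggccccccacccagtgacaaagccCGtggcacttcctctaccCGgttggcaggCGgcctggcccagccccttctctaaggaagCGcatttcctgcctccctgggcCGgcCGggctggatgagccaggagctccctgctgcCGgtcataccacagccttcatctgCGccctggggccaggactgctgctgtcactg
LSR: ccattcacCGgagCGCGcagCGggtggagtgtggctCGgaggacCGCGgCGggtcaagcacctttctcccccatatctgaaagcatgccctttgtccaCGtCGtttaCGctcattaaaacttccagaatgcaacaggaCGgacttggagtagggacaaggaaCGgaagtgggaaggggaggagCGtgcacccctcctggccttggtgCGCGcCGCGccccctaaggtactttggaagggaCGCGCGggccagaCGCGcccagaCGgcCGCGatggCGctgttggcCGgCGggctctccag
ID4: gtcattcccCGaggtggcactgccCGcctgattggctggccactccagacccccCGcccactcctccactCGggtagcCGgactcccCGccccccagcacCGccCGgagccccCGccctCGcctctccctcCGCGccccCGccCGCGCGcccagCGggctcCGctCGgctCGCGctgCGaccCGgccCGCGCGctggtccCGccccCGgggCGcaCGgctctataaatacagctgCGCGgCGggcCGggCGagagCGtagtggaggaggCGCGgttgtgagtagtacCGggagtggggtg
DCAF8L2: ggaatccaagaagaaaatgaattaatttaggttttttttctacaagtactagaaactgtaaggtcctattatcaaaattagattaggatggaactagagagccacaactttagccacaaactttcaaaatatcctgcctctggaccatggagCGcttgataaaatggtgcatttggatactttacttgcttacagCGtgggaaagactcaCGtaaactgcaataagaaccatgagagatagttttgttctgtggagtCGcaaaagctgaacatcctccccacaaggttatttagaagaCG
The lower ENG and the higher DCAF8L2 are the CpG-poor ones and the lower LSR and higher ID4 the rich ones, so that both kinds occur in both directions.

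Set directly against the SIN3A/3B-DKO lines in the same fit, the SAP30 lines were lower at 440 genes (3.25%) and higher at 572 (4.22%). These add up to 1012 genes (7.47%). In the libraries labelled SIN3A/3B-DKO, the log2 fold change from Parental was -0.66 for SIN3B and 0.39 for SIN3A, so that RNA levels do not check the label for SIN3A. Of the 920 genes lower in both SAP30 lines, 184 were lower than in the SIN3A/3B-DKO lines, 57 were higher, and 679 were not called, and of the 836 higher genes 209 were higher, 13 lower, and 614 not called. A gene that was not called is not shown to be equal. The 920 and 836 genes were chosen by the same SAP30 libraries that this contrast uses. A lean toward the larger change in the SAP30 lines is therefore partly built in. The contrast averages SIN3A/3B-DKO1 and SIN3A/3B-DKO2, which were far apart at some genes. ITGB4 was higher in the SAP30 lines by 2.08 on the log2 scale, with 4.69 to 7.13 TPM in the 4 SIN3A/3B-DKO libraries. IL24, a cytokine of the IL-10 family, differed by -2.81 (93.97 to 166 TPM in those libraries), TAGLN, an actin-binding protein of smooth muscle that lies in the lower stretch of chromosome 11, by -2.53 (61.3 to 86.6 TPM), and F11R by -1.46 (18.3 to 21.5 TPM). For these 4 genes both SIN3A/3B-DKO lines lay on the same side of all SAP30 libraries. KRT81 differed by 2.22, and its level was 6.595 to 7.37 TPM in SIN3A/3B-DKO1 but 42.7 to 46.3 TPM in SIN3A/3B-DKO2. GLUL, glutamine synthetase, differed by 2.73, its level being 13.6 to 14.9 TPM in SIN3A/3B-DKO1 but 0.144 to 0.172 TPM in SIN3A/3B-DKO2. For ENG the averaged difference was 0.00 (SE 0.08, adjusted p = 0.98 from limma), while ENG was at 4.79 to 5.42 TPM in SIN3A/3B-DKO1 but only 0.409 to 0.683 TPM in SIN3A/3B-DKO2, above and below all 4 SAP30 libraries. Against the MLL1-KO lines, the SAP30 lines were lower at 858 genes (6.34%) and higher at 1823 (13.5%), together 2681 (19.8%). The size of this lean toward higher genes depended on scaling. Quantile normalization gave 1213 lower and 1340 higher, and median ratio scaling gave 1101 and 1482. Of the 920 lower genes, 218 were lower than in the MLL1-KO lines, 165 were higher, and 537 were not called. Of the 836 higher genes, 360 were higher, 54 lower, and 422 not called, with the same limit from the choice of genes.

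SAP30-KO1 and SAP30-KO2 were close to each other. In the direct test, 20 genes (0.148% of those tested) differed, 10 in each direction, and this number was 0 when the lines were fitted with the parental libraries alone, where 2073 genes had an unadjusted p under 0.05 and 125 of them a difference of at least 1.5-fold. ENG was 1 of the 20, a quantitative difference between lines that were both far below Parental. IL8, a neutrophil chemokine, was 18.9 and 17.8 TPM in Parental, 18.6 and 18.2 TPM in SAP30-KO1, and 10.7 and 10.6 TPM in SAP30-KO2.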

How the data were processed

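The labels gave the group and replicate of each of the 14 libraries. The authors deposited 1 table of 19410 genes, named RPKM, but its values sum to 1000000 in every library and were used as TPM. Per the labels and the submitters' processing notes, FastQC 0.11.2, TopHat, and featureCounts were used on genome build hg19, and the annotation and the strand of counting are not given in the sources used here. TPM cannot show a change in total RNA. Whole reads were recovered for 18519 of 18519 genes above 0 (within 0.001 of a whole number). A total of 28 rows with names turned into dates were kept and not named.

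Genes with at least 1 TPM in at least 2 of 14 libraries were tested as log2(TPM + 0.5) with limma 3.58.1 in R 4.3.3, with 7 group means, a variance trend, 7 residual and 3.6 prior degrees of freedom. The design had been written for RPKM, and the same test was kept. Tested on simulated data for SAP30-KO1 against Parental (13540 genes, 200 changed), it recovered 98% of 2-fold and 100% of 4-fold changes, with 5 false calls. The changed genes were drawn only from those above a minimum of reads, and the spread was set rather than estimated from these libraries. These rates therefore need not hold for low genes or for the spread seen here. GRCh37 positions were from GENCODE release 44 and 12920 tested genes had one. Promoters printed were from RefSeq, whose table matched 10096 genes. SAP30 was named first, then up to 4 genes with the largest change from each of 49 lists, 15 per direction from all genes with at least 10 TPM, and 10 genes that differ between the lines, and further list members, as well as MKI67, were chosen after their values were seen. Some genes and 1 list are not reported here. The members, lists, and windows were chosen with earlier results of these data known. Same-numbered libraries did not deviate together (correlations of 0.03, 0, and -0.01 across genes), so the main test has no replicate block. Alternatives were 2 other pseudocounts, no low-value filter, quantile and median ratio scaling, other fold minimums, only the 6 libraries, a replicate block, leaving out each library, limma voom on the recovered reads, and subtraction of the running median of 51 neighbouring genes, and the fit on genes with a position was added after seeing the data. Python 3.11.15 with pandas 2.3.3, numpy 2.4.6, and matplotlib 3.10.9 was used for counts and plots.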

Additional observations from a re-analysis of the deposited data

Results flagged for a closer look

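A direct test in limma found 20 genes at different levels in SAP30-KO1 and SAP30-KO2, and this list depends on the other libraries for its estimate of the spread, since 0 passed with the parental and SAP30 libraries alone. The values are log2 differences, SAP30-KO1 minus SAP30-KO2. Lower in SAP30-KO1 were SNORD19 -2.73, LHFPL4 -2.32, B3GNT7 -1.13, ACTG2 -0.97, TENM1 -0.94, LGR6 -0.86, C1orf115 -0.76, EREG -0.68, GPR176 -0.67, and ENG -0.66. Higher in SAP30-KO1 were PTGR1 0.59, CD96 0.64, OASL 0.65, CCDC68 0.69, MMP1 0.74, IL8 0.76, LOC100506713 0.88, TSPYL5 1.01, SNORD74 1.55, and SNORA64 2.09. LHFPL4 was 0.997 and 0.732 TPM in Parental, 0.0854 and 0.132 TPM in SAP30-KO1, and 2.40 and 2.68 TPM in SAP30-KO2, so that the lines stood on opposite sides of Parental. B3GNT7, a glycosyltransferase, was 6.60 and 6.58 TPM in Parental, 5.41 and 4.94 TPM in SAP30-KO1, and 12.2 and 11.7 TPM in SAP30-KO2. SNORD19, SNORA64, and SNORD74 are small nucleolar RNAs inside other genes, and their counts in a library of polyadenylated RNA cannot be told apart from those of their hosts. OASL, an interferon-induced gene, was 21.2 and 25.9 TPM in Parental, 50.99 and 53.25 TPM in SAP30-KO1, and 33.0 and 33.0 TPM in SAP30-KO2.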

How the results depend on the processing

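With a 2-fold minimum, SAP30-KO1 had 452 genes lower and 347 higher, SAP30-KO2 had 457 and 343, and both lines shared 386 and 271, 6 differed between the lines, 105 and 183 were lower and higher than in the SIN3A/3B-DKO lines, and 336 and 826 than in the MLL1-KO lines. With no fold minimum these were 3102 and 3802, 3355 and 3642, 2743 and 3151, 71, 3006 and 3578, and 3235 and 5950. With the neighbour median subtracted, 678 genes were higher in SAP30-KO1, 545 higher in both lines, 11 differed between the lines, and 266 were lower than in the SIN3A/3B-DKO lines. MLL, YAP1, KIF2C, and RPS25 then changed sign, to a mean of both lines of 0.08, 0.10, -0.03, and 0.07, because their neighbours had moved as far as they had. With the parental and SAP30 libraries alone 0 genes differed between the lines, and leaving out 1 library gave 2 to 8, the lowest without replicate 1 of SAP30-KO1. Leaving out 1 library left 880 to 921 genes lower and 781 to 850 higher in both lines. Replicate numbers do not pair the libraries, and with them as a block 921 genes were lower and 837 higher in both lines and 17 differed between the lines. limma voom on the recovered reads gave 943 lower and 952 higher in both lines, moving the lower share of the calls from 52.4% to 49.8%. No setting moved the median change of the SAP30 lines from Parental over all genes by over 0.03.

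Genes with few reads are imprecise at 18415039 to 23162684 reads per library. With 2 libraries per group, 1 cell line, and an unedited parental culture, effects of SAP30 loss and of editing, selection, or passage that both lines share cannot be told apart, nor can a chromosome copy change from a transcriptional one. Several genes named above, of which examples follow, changed about as much in every edited line against the same Parental libraries, and their number was not counted. JAG2 changed by -2.24 in the SIN3A/3B-DKO lines and -2.29 in the MLL1-KO lines, and ADM2 by -1.86 and -1.82. Others did not, such as DCAF8L2 at -0.23 and -1.46, ID4 at 2.39 and -2.58, WNT5A at 1.47 and -1.57, and ITGB4 at -3.30 and 1.75.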
